A study of Mus musculus with 4 samples.

Results

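The chemokine receptor gene Cxcr3 and its interferon-inducible ligand genes Cxcl9, Cxcl10 and Cxcl11 were followed in leukocytes sorted from mouse tumours. The members were taken by symbol from the gene lists of the count matrices, where 3 of the 4 listed genes had a row among 27998 genes. Cxcl11 had no row and is not analysed here. Live CD45+ cells came from tumours transplanted into 129S6 mice of wt (wild-type) genotype, which received the anti-PD-1 antibody RMP1-14, the anti-CTLA-4 antibody 9D9, both antibodies in combination, or rat IgG2a as a control. Doses were 200 µg of antibody given into the peritoneum, and the checkpoint antibodies were given on days 3, 6 and 9 after transplant. The sources used here do not give the tumour line, the age of the mice or the number of mice behind a library.

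There was 1 library per treatment, so no difference between treatments could be tested, and every interval below covers counting error only. The deposited cell table assigned 14491 cells to 19 clusters, with 3417 cells in the anti-PD-1 library, 3336 cells in the anti-CTLA-4 library and 3945 cells in the combination library, against 3793 cells in the control library. Depth is counted in UMIs, the molecular barcodes that mark single captured transcripts. The listed cells held 11176246 UMIs in anti-PD-1 cells, 11211310 UMIs in anti-CTLA-4 cells and 11827242 UMIs in combination cells, against 13374294 UMIs in control cells, and the median per cell ran from 2549 to 2991 over libraries. Levels are CPM values, the UMIs of a gene per 1000000 UMIs of the same cells, and ranges in parentheses beside a level or ratio are exact 95% counting intervals.

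CXCR3 is a G protein-coupled receptor of activated T cells, NK cells and plasmacytoid dendritic cells. Its ligands are secreted by macrophages, dendritic cells and stromal cells in response to interferon, and in tumours they are known for drawing in and positioning T cells. Cxcl9 responds mainly to interferon gamma, whereas Cxcl10 also responds to type I interferons and to NF-kB.

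The ligand genes lie side by side on the minus strand of chromosome 5 in GRCm38, which the submitters' processing notes call mm10. In the GENCODE vM21 annotation Cxcl9 (ENSMUSG00000029417) spans chr5:92321347-92328079 and Cxcl10 (ENSMUSG00000034855) spans chr5:92346638-92348889. Cxcl11 spans chr5:92359544-92365485, with the gene type polymorphic pseudogene, and the ligand block covers 44.1 kb. Cxcr3 (ENSMUSG00000050232) spans chrX:101731535-101734269 on the minus strand. The bases upstream of Cxcl9 and Cxcl10 are shown because these genes were low together in the combination library. They are given 5′ to 3′ on the minus strand from the RefSeq promoter table of GRCm38.p6, ending at the base before each start, and capitals mark a match to the core of the interferon-stimulated response element (ISRE).
Cxcl9, chr5:92328080-92328329: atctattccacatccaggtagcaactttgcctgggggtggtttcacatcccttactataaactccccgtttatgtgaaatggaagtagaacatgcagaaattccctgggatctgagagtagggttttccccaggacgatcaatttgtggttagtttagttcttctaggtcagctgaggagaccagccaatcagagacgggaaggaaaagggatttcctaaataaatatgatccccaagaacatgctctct
Cxcl10, chr5:92348890-92349139: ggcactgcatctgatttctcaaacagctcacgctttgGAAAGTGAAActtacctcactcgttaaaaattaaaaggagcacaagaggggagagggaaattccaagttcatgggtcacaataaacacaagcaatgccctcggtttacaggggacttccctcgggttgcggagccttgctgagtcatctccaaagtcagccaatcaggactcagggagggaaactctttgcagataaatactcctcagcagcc

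Windows from 250 bases before to 50 bases after each start were searched on both strands for the ISRE core (GAAA, any 2 bases, GAAA) and for an NF-kB site (GGGA, any base, TTTCC). Cxcl10 held 1 match, the ISRE core GAAAGTGAAA at positions -213 to -204 from the start, and it overlapped no other match. The windows of Cxcl9 and Cxcr3 held no match to these letters. Only these letters were searched, so that a window without a match may still hold a site written in other letters. Among 32851 promoter windows of the same length, 3.44% held the ISRE core and 0.411% the NF-kB letters. The table had no Cxcl11 entry.

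Cxcl9 and Cxcl10 transcripts were found mainly in macrophage and monocyte clusters, and Cxcr3 transcripts mainly in lymphocyte clusters. Clusters 1, 2, 4, 7 and 15 carried macrophage/monocyte markers and are called macrophage/monocyte-like. Cluster 0 also carried them, with the monocyte genes Ly6c2 in 65.9% and Ccr2 in 56.5% of its cells, and it was kept apart from that class, with a joined class as an alternative. Clusters 3, 6, 8, 9 and 10 were T cell-like. Their leading genes included Cd4 in cluster 3, Cd8b1 and Cd8a in cluster 8, cell-cycle genes such as Rrm2 in cluster 9 and Foxp3 in cluster 10. Cluster 5 was NK cell-like, cluster 11 conventional dendritic cell-like, cluster 12 neutrophil-like, cluster 16 plasmacytoid dendritic cell-like and cluster 17 migratory dendritic cell-like. Clusters 13 and 14 stayed unnamed. Cluster 18, with 55 cells, was led by the collagen genes Col3a1 and Col1a1, although the cells had been sorted for CD45.

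**Figure D1:**
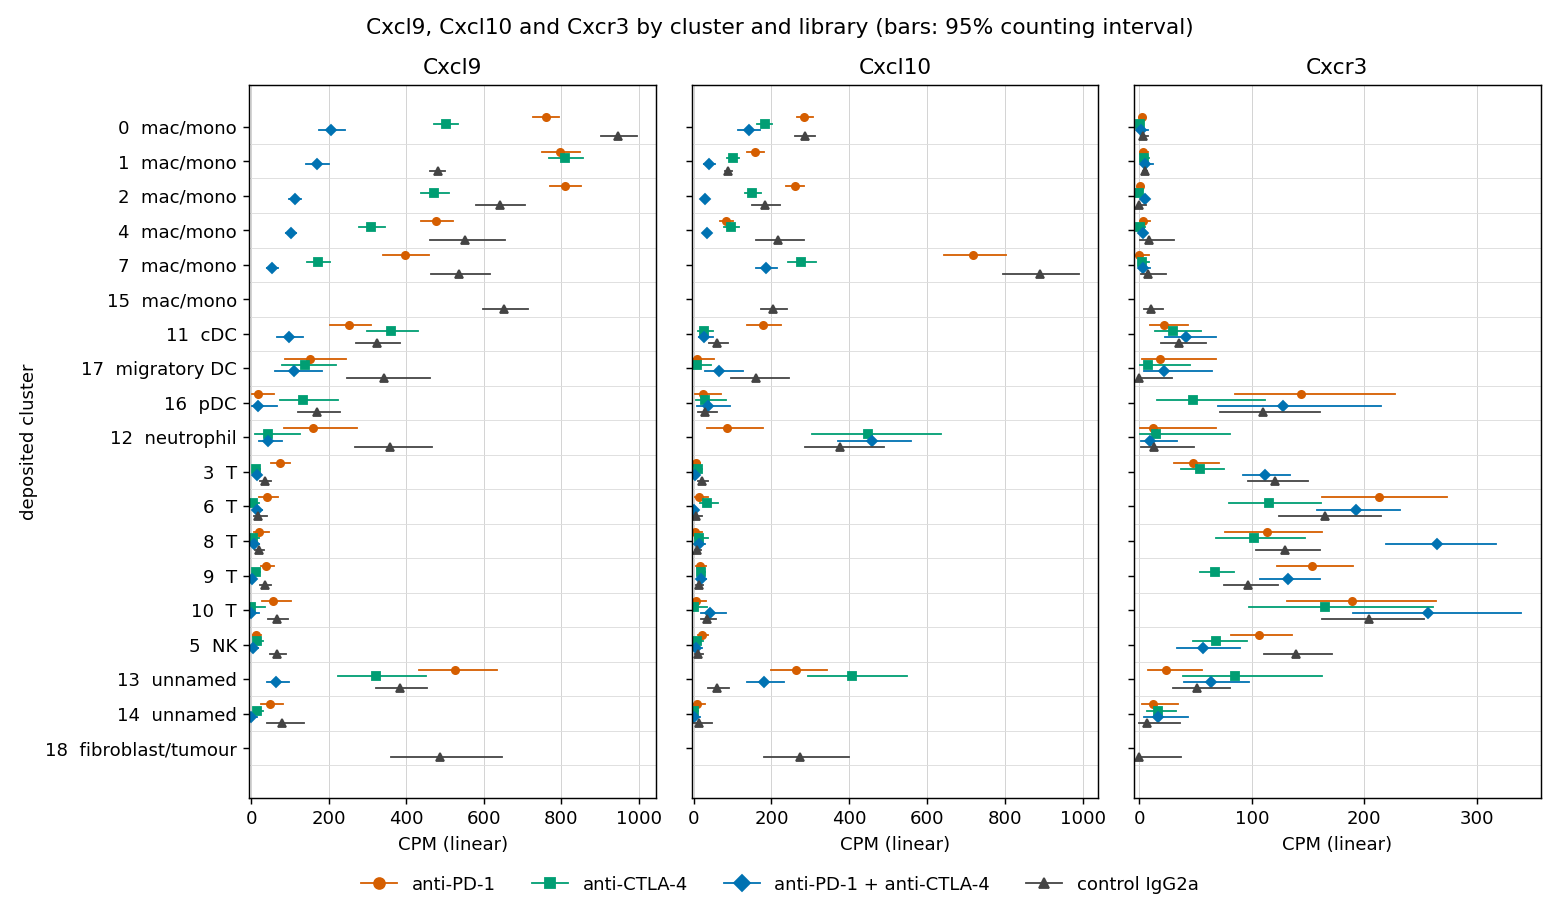
CPM (linear axes) of Cxcl9, Cxcl10 and Cxcr3 in each deposited cluster with at least 20 cells in a library; points are the libraries of anti-PD-1, of anti-CTLA-4, of both and of control and bars are exact Poisson 95% intervals. The combination points lie left of the control points for Cxcl9 in clusters 0, 1, 2, 4 and 7, and Cxcr3 is highest in T cell-like cluster 10, with a mean of 204 CPM.

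Cxcl9 was the most abundant member. It had 5792 UMIs in anti-PD-1 cells, 3699 UMIs in anti-CTLA-4 cells and 929 UMIs in combination cells, against 5724 UMIs in control cells. As levels these were 518 CPM in anti-PD-1 cells, 329.9 CPM in anti-CTLA-4 cells and 78.5 CPM in combination cells, against 428 CPM in control cells. The combination library stood far below the other libraries. Among clusters with at least 20 cells in every library, the mean over libraries, with the lowest and highest library here in parentheses, was highest in cluster 0 at 604 CPM (207 to 948). Cluster 1 followed at 565 CPM (169 to 811), cluster 2 at 509 CPM (112 to 809.6) and cluster 4 at 360.1 CPM (102 to 552). The ranges of all neighbours in this order overlapped. Cycling macrophage cluster 15 had 654 CPM in control cells, the only library with enough of its cells. Conventional dendritic cell-like cluster 11 had 258 CPM (96.6 to 359.5) and migratory dendritic cell-like cluster 17 had 185 CPM (111 to 342).

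Macrophages and monocytes held most Cxcl9 UMIs. Clusters 0, 1, 2, 4, 7 and 15 are the macrophage and monocyte clusters, and the share of Cxcl9 UMIs they held was 94% in anti-PD-1 cells, 93.1% in anti-CTLA-4 cells and 88.1% in combination cells, against 89.7% in control cells. Their part of the UMIs of all genes was 68.2% in anti-PD-1 cells, 62.1% in anti-CTLA-4 cells and 60.2% in combination cells, against 63.6% in control cells. The cluster that supplied most Cxcl9 differed between libraries. It was cluster 0 in the anti-PD-1 library (35.8% of Cxcl9 UMIs), cluster 1 in the anti-CTLA-4 library (35.7%), cluster 4 in the combination library (27.1%) and cluster 1 in the control library (40.8%). The share of listed cells in cluster 1 was 8.98% in the anti-PD-1 library, 12.5% in the anti-CTLA-4 library and 6.44% in the combination library, against 28.3% in the control library.

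Cxcl10 had another order of clusters. By the mean over libraries, with the range over libraries in parentheses, it was highest in cluster 7, at 518 CPM (186 to 889), whose leading genes Rsad2, Ifit2, Ifit3, Ifit1 and Isg15 are interferon-stimulated genes. Neutrophil-like cluster 12 followed, at 342 CPM (86.1 to 457), with a range that overlapped, and it stood above cluster 7 in anti-CTLA-4 cells and in combination cells. In cluster 7, Cxcl10 had 719 CPM in anti-PD-1 cells, 277 CPM in anti-CTLA-4 cells and 186 CPM in combination cells, against 889 CPM in control cells. Cxcl9 had 397 CPM in anti-PD-1 cells, 171 CPM in anti-CTLA-4 cells and 54.1 CPM in combination cells, against 536 CPM in control cells of the same cluster. The share of Cxcl10 UMIs held by cluster 7 was 15.1% in anti-PD-1 cells, 19.2% in anti-CTLA-4 cells and 29.1% in combination cells, against 18.7% in control cells. Its part of the UMIs of all genes was smaller, at 3.97% in anti-PD-1 cells, 7.54% in anti-CTLA-4 cells and 9.22% in combination cells, against 2.77% in control cells. Clusters 0, 1 and 2 were also main sources. Cluster 0 had a share of Cxcl10 UMIs of 36.9% in anti-PD-1 cells, 29.4% in anti-CTLA-4 cells and 14.6% in combination cells, against 26.9% in control cells. Cluster 1 had 9.53% in anti-PD-1 cells, 13.5% in anti-CTLA-4 cells and 4.73% in combination cells, against 24.5% in control cells. Cluster 2 had 24.7% in anti-PD-1 cells, 17.1% in anti-CTLA-4 cells and 8.03% in combination cells, against 6.34% in control cells.

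**Figure D2:**
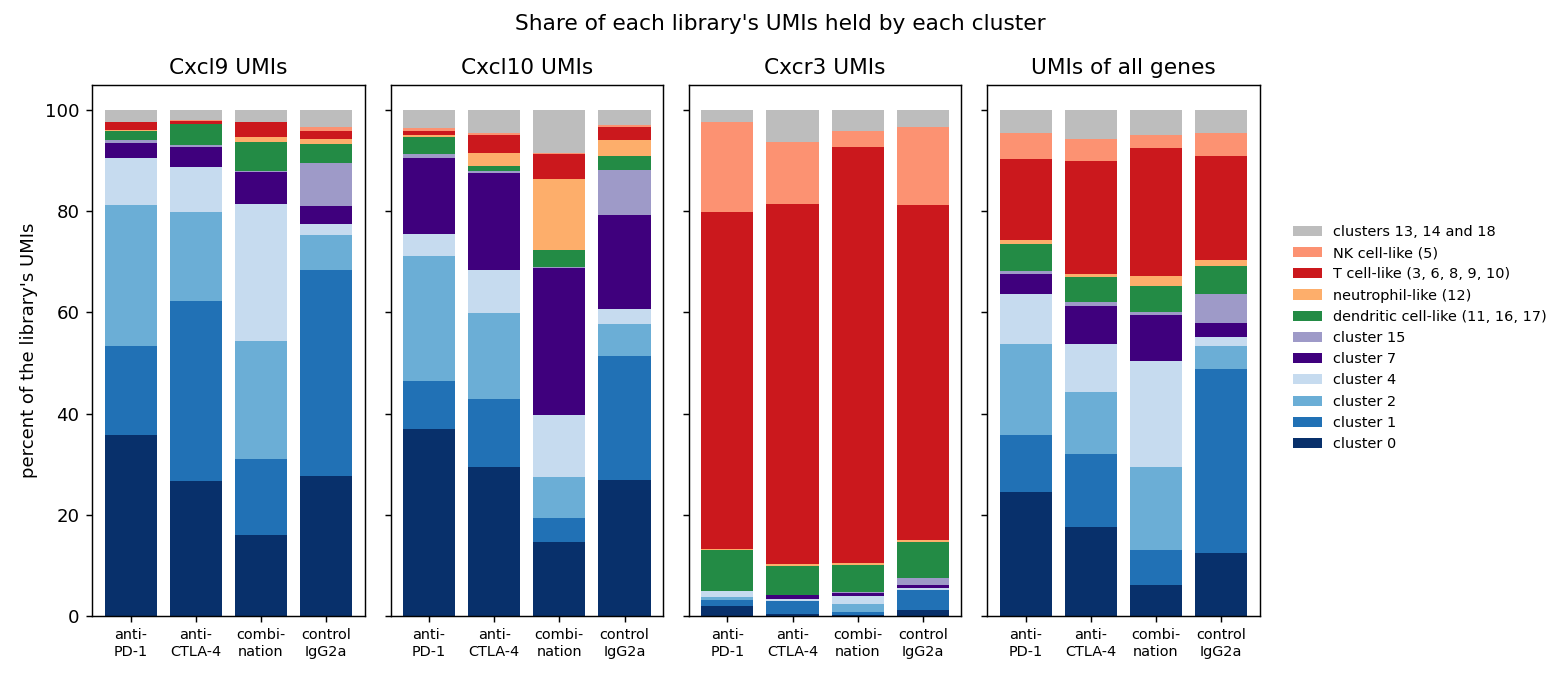
Percent of each library's Cxcl9, Cxcl10, Cxcr3 and total UMIs held by each cluster or group of clusters, with 1 stacked bar for each of the libraries of anti-PD-1, of anti-CTLA-4, of both and of control. Macrophage and monocyte clusters fill most of the ligand bars, neutrophil-like cluster 12 takes 14.1% of the Cxcl10 bar of the combination library, and T cell-like clusters fill between 66.2% and 82.4% of the Cxcr3 bars.

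The Cxcl10 level of neutrophil-like cluster 12 was lowest in the anti-PD-1 library. It had 86.1 CPM in anti-PD-1 cells, 448 CPM in anti-CTLA-4 cells and 457 CPM in combination cells, against 378 CPM in control cells. These are sums over 38 cells in the anti-PD-1 library, 41 cells in the anti-CTLA-4 library and 116 cells in the combination library, against 53 cells in the control library. Set against the macrophage/monocyte-like class, the Cxcl10 level was 36.6% in anti-PD-1 cells, 314% in anti-CTLA-4 cells and 772% in combination cells, against 239% in control cells. The complement genes C1qa, C1qb and C1qc, which macrophages make, stood at 18.1% in anti-PD-1 cells, 10.4% in anti-CTLA-4 cells and 28.4% in combination cells, against 48.6% in control cells. The Cxcl10 percentage was above that of the C1q genes in each library. Cxcl9 stood at 23.2% in anti-PD-1 cells, 8.81% in anti-CTLA-4 cells and 40.2% in combination cells, against 68.8% in control cells, below the C1q genes in the anti-CTLA-4 library and above them elsewhere. Cxcl10 in neutrophil-like cells was not lower in the combination library than in control, with a log2 ratio of 0.28 (-0.21 to 0.78), and cluster 12 gave 14.1% of all Cxcl10 UMIs in the combination library, against 3.17% in the control library.

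Some other high Cxcl10 levels rested on single cells. In unnamed cluster 13, Cxcl10 had 263 CPM in anti-PD-1 cells, 408 CPM in anti-CTLA-4 cells and 179.9 CPM in combination cells, against 59.7 CPM in control cells. A single cell held 34 of the 43 UMIs in the anti-CTLA-4 library, and another held 41 of the 59 UMIs in the combination library. Without the highest cell of each library the log2 ratios to control were 1.92 (1.06 to 2.83) in anti-PD-1 cells, 0.85 (-0.50 to 2.10) in anti-CTLA-4 cells and 0.19 (-0.85 to 1.24) in combination cells. In the anti-PD-1 library the highest cell held 17 of 55 UMIs, so that its level did not rest on 1 cell. In cluster 18, 25 of 27 Cxcl10 UMIs in control cells came from 1 cell. Cluster 13 carried the T cell gene Cd3e in 59% and the macrophage gene C1qb in 83% of its cells.

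Ligand UMIs in lymphocytes were few. In T cell-like clusters the Cxcl9 level, set against the macrophage/monocyte-like class, was 6.92% in anti-PD-1 cells, 1.95% in anti-CTLA-4 cells and 8.92% in combination cells, against 6.39% in control cells. The C1q genes stood at 4.01% in anti-PD-1 cells, 1.75% in anti-CTLA-4 cells and 4.70% in combination cells, against 4.12% in control cells, lower than Cxcl9 in each library. Lyz2, the lysozyme gene of macrophages, stood at 7.43% in anti-PD-1 cells, 3.02% in anti-CTLA-4 cells and 5.47% in combination cells, against 6.19% in control cells, above Cxcl9 after either antibody alone and below it in combination and control cells. The share of T cell-like cells with a Cxcl9 UMI was 6.47% in anti-PD-1 cells, 2.20% in anti-CTLA-4 cells and 1.11% in combination cells, against 3.07% in control cells, at median depths of 1698 to 2345 UMIs. No expression in T cells was read from these low shares, and the part of free RNA in them was not tested.

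In the macrophage/monocyte-like class the combination library was the one with low ligand levels. Cxcl9 had 689 CPM (666 to 712) in anti-PD-1 cells, 492 CPM (473 to 512) in anti-CTLA-4 cells and 105 CPM (96.8 to 113) in combination cells, against 519.6 CPM (503 to 537) in control cells. Cxcl10 had 235 CPM (222 to 249) in anti-PD-1 cells, 143 CPM (133 to 154) in anti-CTLA-4 cells and 59.3 CPM (53.4 to 65.5) in combination cells, against 158 CPM (149 to 168) in control cells. For both genes the combination interval met that of no other library. A gene is called lower below when its ratio passes 2-fold and the interval leaves out 0, and 9.68% of 10223 genes in this class were lower in combination cells than in control cells, both ligands among them. Counted from the lowest ratio, Cxcl9 was at place 186 and Cxcl10 at place 527. Over all listed cells both were lower too, where 5.52% of genes were.

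The combination also lay below each antibody alone. The log2 ratio of Cxcl9 in this class was -2.72 (-2.84 to -2.60) for the combination over anti-PD-1 and -2.24 (-2.36 to -2.11) for the combination over anti-CTLA-4. For Cxcl10 the ratios were -1.99 (-2.16 to -1.82) over anti-PD-1 and -1.27 (-1.45 to -1.09) over anti-CTLA-4. Lower in these comparisons were 3.78% of genes against anti-PD-1 and 3.39% against anti-CTLA-4.

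The class did not have the same makeup in each library. Cluster 1 gave 1075 of its 1521 control cells. Clusters 2 and 4 gave 688 and 589 of its 1868 combination cells. Cluster 2 was its largest in the anti-PD-1 library, with 549 of 1256 cells, and in the anti-CTLA-4 library, with 435 of 1411. The summed level of 7 cell-cycle genes in the class was 81.7 CPM in anti-PD-1 cells, 105 CPM in anti-CTLA-4 cells and 69 CPM in combination cells, against 498 CPM in control cells, and its part in the ligand ratios was not tested. Ratios within single clusters do not depend on this makeup. Scaling by the median of gene ratios in place of the total would add 0.07 in anti-PD-1 cells, 0.11 in anti-CTLA-4 cells and 0.15 in combination cells to every log2 ratio of the class.

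Within each of clusters 0, 1, 2, 4 and 7, Cxcl9 was lower in the combination library. It had 207 CPM in combination cells against 948 CPM in control cells of cluster 0, and the log2 ratio was -2.20 (-2.45 to -1.95). It had 169 CPM in combination cells against 481 CPM in control cells of cluster 1, with a ratio of -1.51 (-1.77 to -1.26). Clusters 2, 4 and 7 had lower ratios than these. It had 112 CPM in combination cells against 641 CPM in control cells of cluster 2, with a ratio of -2.52 (-2.76 to -2.27). It had 102 CPM in combination cells against 552 CPM in control cells of cluster 4, with a ratio of -2.43 (-2.74 to -2.12). It had 54.1 CPM in combination cells against 536 CPM in control cells of cluster 7, with a ratio of -3.31 (-3.75 to -2.88), the lowest of the clusters named here. Lower in combination cells were 3.84% of genes in cluster 0, 5.56% in cluster 1, 5.78% in cluster 2, 3.93% in cluster 4 and 10.3% in cluster 7.

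Low Cxcl9 in the combination library was also seen in dendritic cells. Conventional dendritic cell-like cluster 11 had 96.6 CPM in combination cells against 324 CPM in control cells, with a log2 ratio of -1.75 (-2.33 to -1.20), in a cluster where 7.93% of genes were lower. Migratory dendritic cell-like cluster 17 had 111 CPM in combination cells against 342 CPM in control cells, a ratio of -1.63 (-2.58 to -0.75), where 7.6% of genes were lower. In 14 of 14 clusters with at least 20 UMIs in both libraries together, the Cxcl9 interval lay below 0. Lymphocyte clusters 3, 5, 9 and 10 were among them, where no expression was read from Cxcl9. Some clusters reached 20 UMIs only through control cells. Control cells had 41 UMIs against 1 in combination cells of cluster 5, 27 against 0 in cluster 10 and 40 against 2 in cluster 16. The filter thus partly set this count, which has no share over all genes beside it, and no result was read from it.

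Cxcl10 was lower in the combination library in the same macrophage and monocyte clusters. It had 142 CPM in combination cells against 286 CPM in control cells of cluster 0, with a log2 ratio of -1.01 (-1.34 to -0.70). It had 40.1 CPM in combination cells against 89 CPM in control cells of cluster 1, with a ratio of -1.15 (-1.71 to -0.64). Clusters 2 and 7 had lower ratios. It had 28.9 CPM in combination cells against 184 CPM in control cells of cluster 2, with a ratio of -2.67 (-3.16 to -2.19). It had 186 CPM in combination cells against 889 CPM in control cells of cluster 7, with a ratio of -2.26 (-2.51 to -2.00). In cluster 4 it had 83.6 CPM in anti-PD-1 cells, 96.8 CPM in anti-CTLA-4 cells and 34.9 CPM in combination cells, against 216 CPM in control cells, with log2 ratios of -1.37 in anti-PD-1 cells, -1.16 in anti-CTLA-4 cells and -2.63 in combination cells. Lower there were 3.91% of genes in anti-PD-1 cells and 4.03% in anti-CTLA-4 cells. A single control cell held 26 of the 51 UMIs of cluster 4, and without the highest cell of each library the ratios were -0.56 (-1.23 to 0.15) in anti-PD-1 cells, -0.69 (-1.37 to 0.03) in anti-CTLA-4 cells and -1.79 (-2.46 to -1.08) in combination cells. In cluster 0 the combination ratio without those cells was -1.34 (-1.72 to -0.97).

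Few genes were lower in all of these clusters. Of 4768 genes tested in each of clusters 0, 1, 2, 4 and 7, 9 or 0.189% were lower in combination cells of all 5 clusters, and Cxcl9 and Cxcl10 were among them. The others, named here after their values were seen, were Cd72, Cd81, Ifitm1, Il1r2, Raet1e, Rnase4 and Thbs1. Cxcl10 passed 2-fold only narrowly in cluster 0, so its place among these genes depends on the cut. Median-of-ratios scaling was not run within single clusters. In anti-PD-1 cells 1 of 3565 genes (0.0281%) was lower in all 5 clusters, and in anti-CTLA-4 cells 2 of 4180 (0.0478%), with neither ligand among them. All these comparisons share the control library.

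After a single antibody the direction differed between clusters, a difference that was not tested. In cluster 1, Cxcl9 was above control after either antibody, with 798 CPM in anti-PD-1 cells and 811 CPM in anti-CTLA-4 cells, against 481 CPM in control cells. The log2 ratios there were 0.73 (0.62 to 0.84) for anti-PD-1 and 0.75 (0.66 to 0.85) for anti-CTLA-4. In cluster 0 both lay below control, with 760.3 CPM in anti-PD-1 cells and 501 CPM in anti-CTLA-4 cells, against 948 CPM in control cells, and with ratios of -0.32 (-0.41 to -0.22) for anti-PD-1 and -0.92 (-1.04 to -0.80) for anti-CTLA-4. Cluster 2 split the antibodies, with a Cxcl9 ratio of 0.34 (0.18 to 0.50) for anti-PD-1 and -0.44 (-0.62 to -0.26) for anti-CTLA-4. None of these single-antibody values passed 2-fold. In cluster 7, anti-CTLA-4 cells were lower for both ligands, with ratios of -1.64 (-1.96 to -1.33) for Cxcl9 and -1.68 (-1.93 to -1.44) for Cxcl10, where 7.3% of genes were lower. Cxcl10 in cluster 11 had 177 CPM in anti-PD-1 cells, 27 CPM in anti-CTLA-4 cells and 27.6 CPM in combination cells, against 60.3 CPM in control cells, so that anti-PD-1 cells stood above the other libraries. A single control cell held 13 of the 24 UMIs of cluster 11. Without the highest cell of each library the combination ratio there was -0.77 (-2.49 to 0.79).

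**Figure D3:**
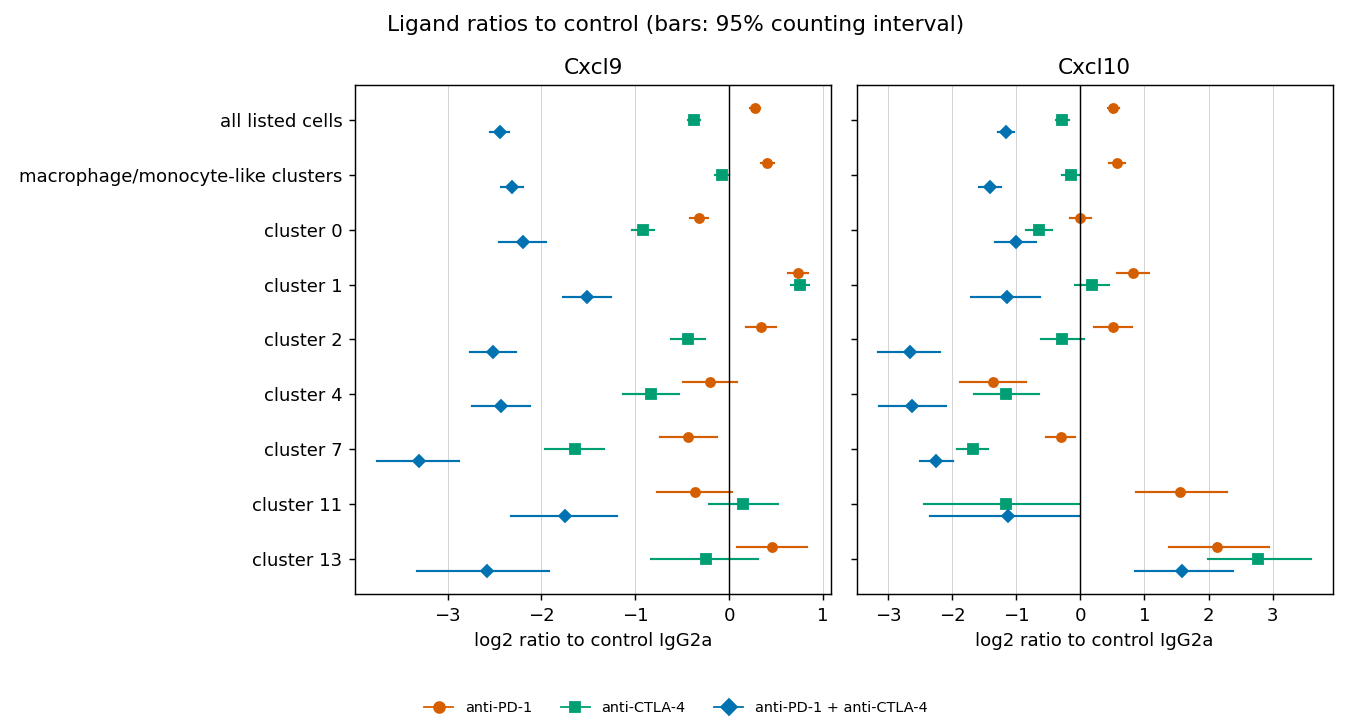
Log2 ratios of Cxcl9 and Cxcl10 to control for the libraries of anti-PD-1, of anti-CTLA-4 and of both in all listed cells, in the macrophage/monocyte-like class and in single clusters, with bars for the exact 95% counting interval. The combination points lie left of 0 for both ligands in clusters 0, 1, 2, 4, 7 and 11, from -3.31 to -1.01, while the single-antibody points lie on both sides of 0. In cluster 13 the combination point lies left of 0 for Cxcl9 and right of it for Cxcl10, at 1.59.

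Fewer macrophages of the combination library had ligand UMIs. In the macrophage/monocyte-like class the share of cells with a Cxcl9 UMI was 51.9% in anti-PD-1 cells, 41% in anti-CTLA-4 cells and 15% in combination cells, against 48.1% in control cells. With every cell thinned to 1000 UMIs the shares were 31.8% in anti-PD-1 cells, 24.8% in anti-CTLA-4 cells and 7.14% in combination cells, against 25.8% in control cells, so that combination cells were lowest at equal depth as well. The share of cells with at least 10 Cxcl9 UMIs was 8.04% in anti-PD-1 cells, 3.69% in anti-CTLA-4 cells and 0.321% in combination cells, against 6.57% in control cells. For Cxcl10 the share of cells with a UMI was 21.5% in anti-PD-1 cells, 16.2% in anti-CTLA-4 cells and 6.42% in combination cells, against 14.9% in control cells. At equal depth it was 12.3% in anti-PD-1 cells, 7.56% in anti-CTLA-4 cells and 3.32% in combination cells, against 6.26% in control cells.

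Over all libraries together, Cxcl10 was detected more often in cells with Cxcl9 in clusters 0, 1, 2 and 7. At 1000 UMIs per cell, Cxcl10 was found in 38.6% (28.1 to 49.9) of cluster 7 cells with Cxcl9 and in 12.9% (10.6 to 15.5) of those without. In cluster 0 the shares were 21.2% (18.2 to 24.5) with Cxcl9 and 7.68% (6.42 to 9.10) without, and in cluster 2 they were 19% (15.2 to 23.2) with and 3.69% (2.75 to 4.84) without. Cluster 4 had 7.59% (3.99 to 12.9) with and 3.51% (2.45 to 4.84) without, with exact binomial intervals that met. In cluster 1 the shares were 8.79% (6.62 to 11.4) with and 3.02% (2.20 to 4.05) without. By library, those of cluster 1 were 12% (6.70 to 19.3) with and 7.60% (4.11 to 12.6) without in anti-PD-1 cells and 6.75% (3.42 to 11.8) with and 3.70% (1.71 to 6.91) without in anti-CTLA-4 cells. They were 0% (0 to 12.3) with and 3.37% (1.36 to 6.81) without in combination cells, against 9.56% (6.34 to 13.7) with and 1.75% (0.960 to 2.92) without in control cells, the one library of cluster 1 whose intervals did not meet. Within cluster 0 the shares with and without Cxcl9 were 24.1% and 10.1% in anti-PD-1 cells, 19.9% and 6.42% in anti-CTLA-4 cells and 16.1% and 6.67% in combination cells, against 18.8% and 5.86% in control cells. The intervals of this pair met in the combination library, at 16.1% (5.45 to 33.7) and 6.67% (3.78 to 10.8), and in no other library. In cluster 7 the shares were 32% (14.9 to 53.5) with and 11.6% (7.88 to 16.2) without in anti-CTLA-4 cells, with intervals that met. They were 51.9% (31.9 to 71.3) with and 19% (11 to 29.4) without in control cells, with intervals that did not. Anti-PD-1 and combination cells with Cxcl9 were too few there. In cluster 2 only the anti-CTLA-4 intervals met. The libraries differ in both ligand levels, and the part of this in the shares over all libraries was not tested. The cells of a library share their source, so these intervals describe the libraries only.

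Other interferon gamma-induced genes lay on both sides of control in the combination library. The list held 17 genes without Cxcl9 and Cxcl10, of which 16 were tested in the macrophage/monocyte-like class. Above control were 14 in anti-PD-1 cells, 16 in anti-CTLA-4 cells and 9 in combination cells. Higher past 2-fold were 5 in anti-PD-1 cells, 2 in anti-CTLA-4 cells and 2 in combination cells, where 3.03% of all genes were in anti-PD-1 cells, 3.62% in anti-CTLA-4 cells and 3.55% in combination cells. None of the list was lower past 2-fold in any treated library, where 6.4% of all genes were in anti-PD-1 cells and 7.48% in anti-CTLA-4 cells, beside the 9.68% given for combination cells. With 16 genes tested, a count of 0 is near these shares. The median log2 ratio of the list was 0.59 in anti-PD-1 cells, 0.42 in anti-CTLA-4 cells and 0.08 in combination cells. Over all genes tested it was -0.12 in anti-PD-1 cells, -0.16 in anti-CTLA-4 cells and -0.21 in combination cells.

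Cd274, the gene of the PD-1 ligand PD-L1, was above control in every treated library, the combination included. It had 229 CPM in anti-PD-1 cells, 279 CPM in anti-CTLA-4 cells and 267 CPM in combination cells, against 81.2 CPM in control cells, with log2 ratios of 1.49 in anti-PD-1 cells, 1.78 in anti-CTLA-4 cells and 1.72 in combination cells. The chemokine gene Ccl5, whose product attracts T cells, had 2923 CPM in anti-PD-1 cells, 2380 CPM in anti-CTLA-4 cells and 1968 CPM in combination cells, against 925 CPM in control cells. All treated libraries lay above control for both genes. The guanylate-binding protein gene Gbp5 had 65.6 CPM in anti-PD-1 cells, 43 CPM in anti-CTLA-4 cells and 27.2 CPM in combination cells, against 30.6 CPM in control cells, and its combination ratio was -0.17 (-0.47 to 0.13). Gbp2, of the same family, had ratios of 1.05 in anti-PD-1 cells, 0.68 in anti-CTLA-4 cells and 0.39 in combination cells. The immunity-related GTPase gene Iigp1 had ratios of 0.84 in anti-PD-1 cells, 0.27 in anti-CTLA-4 cells and -0.20 in combination cells. Each of these GTPase genes was highest in anti-PD-1 cells and lowest, among treated libraries, in combination cells.

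**Figure D4:**
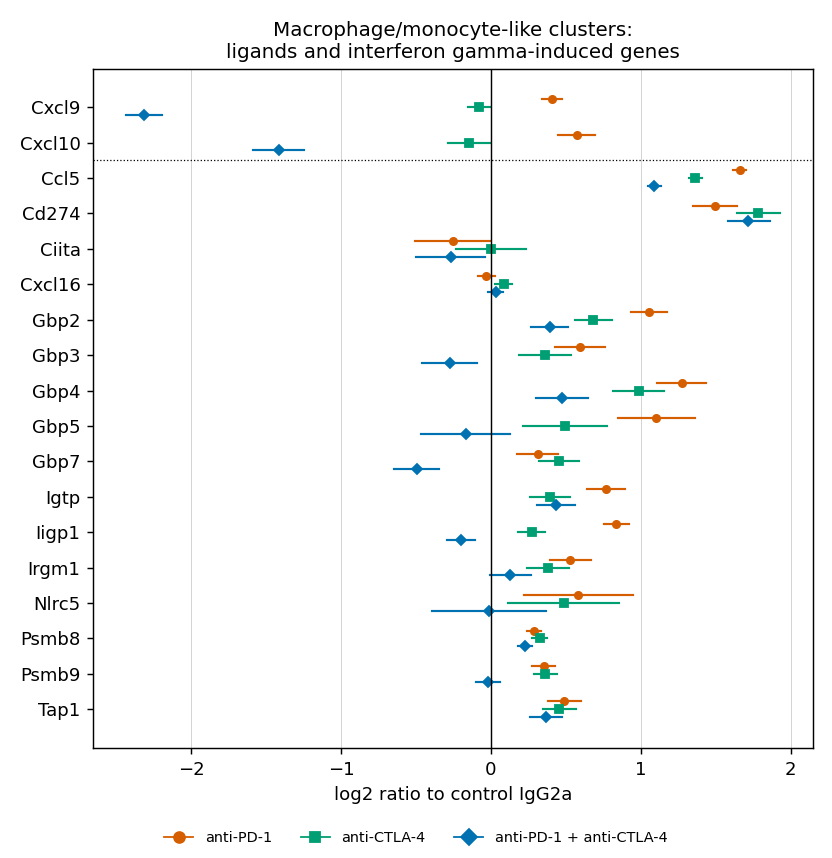
Log2 ratios to control in macrophage/monocyte-like clusters for Cxcl9 and Cxcl10 (above the dotted line) and the 16 interferon gamma-induced genes tested, for the libraries of anti-PD-1, of anti-CTLA-4 and of both, with exact 95% counting intervals. The combination points of the ligands, at -2.31 and -1.42, lie left of those of the listed genes, whose combination median is 0.08.

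Genes of interferon signalling passed 2-fold in numbers near the shares over all genes. Of 15 listed genes, those tested in the macrophage/monocyte-like class numbered 13 in anti-PD-1 cells, 13 in anti-CTLA-4 cells and 14 in combination cells. Socs1, a feedback inhibitor of the pathway, was the one gene of the list higher past 2-fold, after either antibody alone and not in combination cells. Its log2 ratios were 1.19 in anti-PD-1 cells, 1.43 in anti-CTLA-4 cells and 0.67 in combination cells. Irf1, a transcription factor induced by interferon, had ratios of 0.90 in anti-PD-1 cells, 0.63 in anti-CTLA-4 cells and 0.42 in combination cells. Ifngr1, a chain of the interferon gamma receptor, was below control after every treatment, with 211 CPM in anti-PD-1 cells, 214 CPM in anti-CTLA-4 cells and 203 CPM in combination cells, against 403 CPM in control cells. No gene of the list was lower past 2-fold. Over all genes 3.03% were higher in anti-PD-1 cells, 3.62% in anti-CTLA-4 cells and 3.55% in combination cells. Lower were 6.4% in anti-PD-1 cells, 7.48% in anti-CTLA-4 cells and 9.68% in combination cells. With so few genes tested, counts of 0 and 1 are near these shares. The median ratio of the list was 0.04 in anti-PD-1 cells, -0.01 in anti-CTLA-4 cells and -0.04 in combination cells.

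Of 6 cytokine genes listed as raising the ligands, 5 were tested in this class, with medians of 0.62 in anti-PD-1 cells, 0.70 in anti-CTLA-4 cells and 0.46 in combination cells. Tnf had 20.6 CPM in anti-PD-1 cells, 26.4 CPM in anti-CTLA-4 cells and 33.3 CPM in combination cells, against 16.8 CPM in control cells, and a combination ratio of 0.99 (0.65 to 1.33). Il15, the gene of a T and NK cell growth factor, had ratios of 0.62 (0.25 to 0.99) in anti-PD-1 cells, 0.82 (0.47 to 1.17) in anti-CTLA-4 cells and -0.33 (-0.74 to 0.07) in combination cells. Il12a, which encodes a subunit of interleukin 12, had 50 UMIs in anti-PD-1 cells, 29 UMIs in anti-CTLA-4 cells and 128 UMIs in combination cells, against 0 UMIs in control cells. It was the one gene of this list higher past 2-fold, in every treated library. Over all genes of the class 3.03% were higher in anti-PD-1 cells, 3.62% in anti-CTLA-4 cells and 3.55% in combination cells. With 5 genes tested, no result about the list was read from 1 gene.

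Ifng, the gene of the main inducer of Cxcl9, was not low in T cells of the combination library. In T cell-like clusters it had 267 CPM in anti-PD-1 cells, 124 CPM in anti-CTLA-4 cells and 237.6 CPM in combination cells, against 108 CPM in control cells. The log2 ratios were 1.31 (1.09 to 1.52) in anti-PD-1 cells, 0.20 (-0.04 to 0.43) in anti-CTLA-4 cells and 1.14 (0.94 to 1.34) in combination cells. In this class 2.79% of genes were higher past 2-fold in anti-PD-1 cells, 3.27% in anti-CTLA-4 cells and 2.74% in combination cells, and Ifng was among them in anti-PD-1 cells and in combination cells. In Cd4-led cluster 3, Ifng had 468 CPM in anti-PD-1 cells, 219.6 CPM in anti-CTLA-4 cells and 437 CPM in combination cells, against 158 CPM in control cells. In Cd8-led cluster 8 it had 137 CPM in anti-PD-1 cells, 88.2 CPM in anti-CTLA-4 cells and 118 CPM in combination cells, against 128 CPM in control cells, so that the libraries differed less there. No relation between T cell Ifng and macrophage Cxcl9 was tested.

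Cxcr3 was found at lower counts than the ligands, with 348 UMIs in anti-PD-1 cells, 274 UMIs in anti-CTLA-4 cells and 597 UMIs in combination cells, against 559 UMIs in control cells. Its level in all listed cells was 31.1 CPM in anti-PD-1 cells, 24.4 CPM in anti-CTLA-4 cells and 50.5 CPM in combination cells, against 41.8 CPM in control cells. The share of its UMIs in T cell-like clusters was 66.7% in anti-PD-1 cells, 71.2% in anti-CTLA-4 cells and 82.4% in combination cells, against 66.2% in control cells. Their part of the UMIs of all genes was 16% in anti-PD-1 cells, 22.3% in anti-CTLA-4 cells and 25.4% in combination cells, against 20.5% in control cells. NK cell-like cluster 5 had its lowest part in the combination library, with 17.8% in anti-PD-1 cells, 12.4% in anti-CTLA-4 cells and 3.02% in combination cells, against 15.4% in control cells.

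Ordered by the mean over libraries, with the lowest and highest library in parentheses, Foxp3-led cluster 10 came first for Cxcr3 with 204 CPM (165 to 257). Next came cluster 6 with 171 CPM (115 to 213), whose leading genes include Il7r and Cd7, and Cd8-led cluster 8 with 153 CPM (102 to 265). Cycling cluster 9 had 113 CPM (67.7 to 154), plasmacytoid dendritic cell-like cluster 16 had 107 CPM (47.9 to 144), NK cell-like cluster 5 had 92.6 CPM (56.7 to 139) and Cd4-led cluster 3 had 83.7 CPM (48.2 to 121). The ranges of all these neighbours overlapped. In the macrophage/monocyte-like class the Cxcr3 level was 1.57% to 3.90% of that in T cell-like clusters over the libraries, and that of the T cell genes Cd3d, Cd3e and Cd3g was 0.600% to 1.03%.

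Plasmacytoid dendritic cell-like cells carried Cxcr3 at a level near that of T cells. Cluster 16 had 144 CPM in anti-PD-1 cells, 47.9 CPM in anti-CTLA-4 cells and 128 CPM in combination cells, against 109.8 CPM in control cells, from sums over 36 cells in the anti-PD-1 library, 29 cells in the anti-CTLA-4 library and 35 cells in the combination library, against 57 cells in the control library. In the anti-CTLA-4 library 1 cell held 3 UMIs, or 60% of the Cxcr3 UMIs of cluster 16, and without it the level was 20 CPM. Set against T cell-like clusters the Cxcr3 level with all cells was 111% in anti-PD-1 cells, 61.3% in anti-CTLA-4 cells and 78% in combination cells, against 81.4% in control cells. The Cd3 genes stood at 12% in anti-PD-1 cells, 0.580% in anti-CTLA-4 cells and 6.75% in combination cells, against 7.39% in control cells, far below Cxcr3 in each library. Conventional dendritic cell-like cluster 11 had less Cxcr3, with 32.1 CPM (21.8 to 41.4) as mean and range over libraries.

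In the T cell-like class Cxcr3 had 130.1 CPM in anti-PD-1 cells, 78.1 CPM in anti-CTLA-4 cells and 164 CPM in combination cells, against 135 CPM in control cells. The log2 ratios were -0.05 (-0.30 to 0.19) in anti-PD-1 cells, -0.79 (-1.05 to -0.54) in anti-CTLA-4 cells and 0.28 (0.08 to 0.48) in combination cells, and none passed 2-fold. The combination lay above anti-PD-1 by a ratio of 0.33 (0.11 to 0.56) and above anti-CTLA-4 by 1.07 (0.83 to 1.32). The second of these passed 2-fold, as did 2.87% of genes in that direction. The share of cells with a Cxcr3 UMI was 21.3% in anti-PD-1 cells, 18.7% in anti-CTLA-4 cells and 26.8% in combination cells, against 22.2% in control cells. At 1000 UMIs per cell it was 10.5% in anti-PD-1 cells, 6.83% in anti-CTLA-4 cells and 16% in combination cells, against 12.6% in control cells. In macrophage/monocyte-like clusters, at median depths of 3253 to 4296 UMIs, 0.709% to 2.10% of cells had a Cxcr3 UMI.

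Cd8-led cluster 8 had the highest combination ratio of the clusters compared. Cxcr3 there had 113 CPM (75.9 to 163) in anti-PD-1 cells, 102 CPM (68.6 to 147) in anti-CTLA-4 cells and 265 CPM (219 to 317) in combination cells, against 129.8 CPM (103 to 161) in control cells. The combination interval met no other. Its log2 ratio was 1.03 (0.61 to 1.45), and 4.53% of genes in that cluster were higher past 2-fold. At equal depth the share of cells with a Cxcr3 UMI was 10.0% in anti-PD-1 cells, 7.95% in anti-CTLA-4 cells and 24.3% in combination cells, against 12.3% in control cells. The single antibodies had ratios of -0.20 (-0.86 to 0.43) for anti-PD-1 and -0.34 (-1.01 to 0.28) for anti-CTLA-4.

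A few single cells carried much of the Cxcr3 signal elsewhere. Only 4 cells had at least 10 Cxcr3 UMIs. They held 48 in cluster 9 and 32 in cluster 5 of the anti-PD-1 library, and 39 in cluster 3 and 32 in cluster 5 of the control library. Cluster 3 had 48.2 CPM in anti-PD-1 cells, 54.1 CPM in anti-CTLA-4 cells and 111 CPM in combination cells, against 121 CPM in control cells, with ratios of -1.33 in anti-PD-1 cells, -1.16 in anti-CTLA-4 cells and -0.12 in combination cells. Lower past 2-fold there were 3.92% of genes in anti-PD-1 cells and 4.44% in anti-CTLA-4 cells. Without the highest cell of each library it had 42.5 CPM in anti-PD-1 cells, 48.1 CPM in anti-CTLA-4 cells and 108 CPM in combination cells, against 63.6 CPM in control cells, with ratios of -0.58 (-1.40 to 0.19) in anti-PD-1 cells, -0.40 (-1.13 to 0.30) in anti-CTLA-4 cells and 0.76 (0.24 to 1.30) in combination cells. The order of combination and control in cluster 3 thus rested on 1 control cell. In cluster 9 the anti-PD-1 ratio was 0.66 (0.18 to 1.15) with these cells and -0.46 (-1.09 to 0.16) without them. In the whole T cell-like class the ratios without them were -0.22 in anti-PD-1 cells, -0.67 in anti-CTLA-4 cells and 0.42 in combination cells.

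NK cell-like cluster 5 was the lymphocyte cluster with low Cxcr3 in the combination library. It had 106 CPM in anti-PD-1 cells, 68.4 CPM in anti-CTLA-4 cells and 56.7 CPM in combination cells, against 139 CPM in control cells, and a combination ratio of -1.29 (-2.11 to -0.55). Lower past 2-fold in combination cells were 6.61% of genes there. Without the highest cell of each library the levels were 51.5 CPM in anti-PD-1 cells, 62.6 CPM in anti-CTLA-4 cells and 47.6 CPM in combination cells, against 87.5 CPM in control cells, and the combination ratio was -0.88 (-1.81 to -0.03). The share of listed cells in cluster 5 was 8.81% in the anti-PD-1 library, 6.56% in the anti-CTLA-4 library and 4.13% in the combination library, against 8.17% in the control library.

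**Figure D5:**
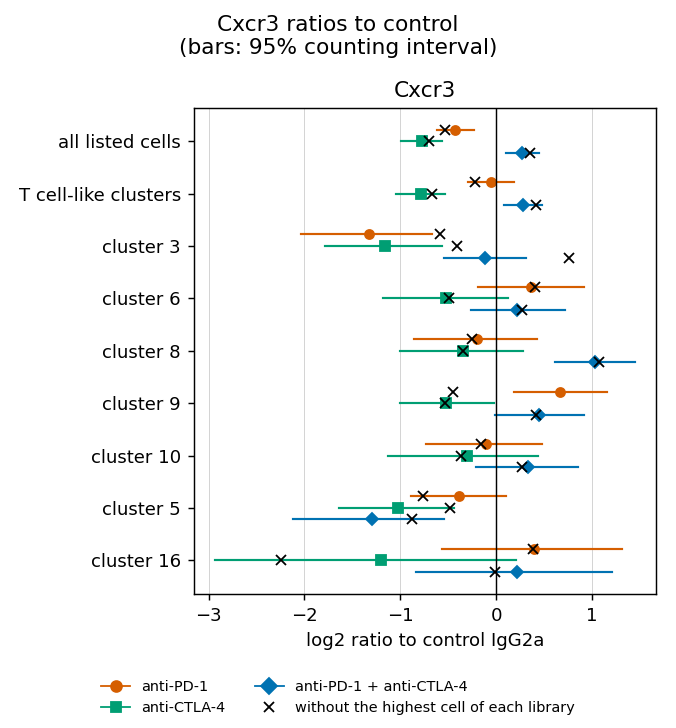
Log2 ratios of Cxcr3 to control for the libraries of anti-PD-1, of anti-CTLA-4 and of both in all listed cells, the T cell-like class and single clusters, with exact 95% counting intervals and crosses for the value without the highest cell of each library. The combination point of cluster 8, at 1.03, lies right of 0 with its interval, and that of cluster 5, at -1.29, lies left. Crosses leave their points in clusters 3, 5, 9 and 16 among others, with that of anti-CTLA-4 in cluster 16 at -2.24.

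Lymphocytes were also split by their own marker UMIs. Among cells of T cell-like and NK cell-like clusters with a Cd8a or Cd8b1 UMI and no Cd4 UMI, the share with a Cxcr3 UMI was 31.1% (24.2 to 38.8) in anti-PD-1 cells, 23.1% (17.9 to 29) in anti-CTLA-4 cells and 34.6% (29.1 to 40.5) in combination cells, against 24.5% (20.5 to 28.9) in control cells. At 1000 UMIs per cell the shares were 14.5% in anti-PD-1 cells, 6.09% in anti-CTLA-4 cells and 19.7% in combination cells, against 10.8% in control cells. Among cells with Cd4 and without Cd8 or Foxp3 UMIs the shares were 14% (9.25 to 19.9) in anti-PD-1 cells, 9.42% (5.68 to 14.5) in anti-CTLA-4 cells and 24.7% (20.3 to 29.6) in combination cells, against 12.1% (8.28 to 17) in control cells. With all UMIs, combination cells had the largest share in both gates, with an interval that met that of anti-PD-1 cells in the Cd8 gate and no other interval in the Cd4 gate. At 1000 UMIs per cell the Cd4 gate had 8.88% (5.05 to 14.2) in anti-PD-1 cells and 2.67% (0.874 to 6.13) in anti-CTLA-4 cells. It had 15.2% (11.4 to 19.6) in combination cells, against 8.37% (5.19 to 12.6) in control cells. There the combination interval met those of anti-PD-1 cells and control cells. The Cxcr3 level of the Cd8 gate was 218 CPM in anti-PD-1 cells, 78.6 CPM in anti-CTLA-4 cells and 183 CPM in combination cells, against 111 CPM in control cells, highest in anti-PD-1 cells. That anti-PD-1 level came from 113 UMIs in 52 cells. Whether the anti-PD-1 cell of cluster 9 with 48 Cxcr3 UMIs was in this gate was not looked up. The order of these levels may thus rest on 1 cell. Cells with a UMI of Foxp3, the transcription factor of regulatory T cells, numbered 23 in anti-PD-1 cells, 13 in anti-CTLA-4 cells and 20 in combination cells, against 95 in control cells. The share of them with Cxcr3 was 26.1% (10.2 to 48.4) in anti-PD-1 cells, 46.2% (19.2 to 74.9) in anti-CTLA-4 cells and 35% (15.4 to 59.2) in combination cells, against 40.0% (30.1 to 50.6) in control cells, with intervals that all met.

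The authors' separate table of 4987 lymphoid cells in 12 clusters again had a Foxp3-rich cluster at the top. Lymphoid cluster 7, with Foxp3 UMIs in 37.8% of cells, had 303 CPM of Cxcr3 over all libraries, and 39.4% of its cells had a UMI. Lymphoid cluster 8, with Cd8a UMIs in 53.7% of cells, had 254 CPM, and lymphoid cluster 10 was lowest with 14 CPM. In lymphoid cluster 2, with Cd4 UMIs in 60.4% of cells, Cxcr3 had 63.2 CPM (36.8 to 101) in anti-PD-1 cells, 54.7 CPM (33.4 to 84.5) in anti-CTLA-4 cells and 139.7 CPM (113 to 171) in combination cells, against 61.3 CPM (32.6 to 105) in control cells. The combination interval lay above all others there. In lymphoid cluster 4, with Cd4 UMIs in 57.9% of cells, Cxcr3 had 23.4 CPM (8.61 to 51) in anti-PD-1 cells, 33.3 CPM (14.4 to 65.6) in anti-CTLA-4 cells and 78.5 CPM (47.3 to 123) in combination cells, against 144 CPM (108 to 188) in control cells, so that control was highest by level. That control level came from 54 UMIs in 14 cells. Whether the control cell of cluster 3 with 39 Cxcr3 UMIs was among these was not looked up by barcode. Of the cells of lymphoid cluster 4, 94.7% were in cluster 3. The control cells of cluster 3 other than that cell held 43 Cxcr3 UMIs, fewer than these 54. The order by level thus most likely rested on 1 cell. The share of cells with a UMI in lymphoid cluster 4 was 4.27% in anti-PD-1 cells, 5.66% in anti-CTLA-4 cells and 14.2% in combination cells, against 6.45% in control cells.

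Other homing receptors of T cells were set beside Cxcr3 in the T cell-like class. Of 11 genes listed, 10 were tested. Higher past 2-fold were 1 in anti-PD-1 cells, 0 in anti-CTLA-4 cells and 2 in combination cells, and lower were 1 in anti-PD-1 cells, 2 in anti-CTLA-4 cells and 3 in combination cells. Over all genes 2.79% were higher in anti-PD-1 cells, 3.27% in anti-CTLA-4 cells and 2.74% in combination cells. Lower over all genes were 2.76% in anti-PD-1 cells, 4.37% in anti-CTLA-4 cells and 3.56% in combination cells. The median ratio of the list was -0.19 in anti-PD-1 cells, -0.53 in anti-CTLA-4 cells and -0.53 in combination cells. Over all genes it was 0.00 in anti-PD-1 cells, -0.02 in anti-CTLA-4 cells and -0.03 in combination cells. Cxcr4, the receptor of CXCL12, had 37.6 CPM in anti-PD-1 cells, 34 CPM in anti-CTLA-4 cells and 51.3 CPM in combination cells, against 17.9 CPM in control cells, with a combination ratio of 1.52 (1.05 to 2.02). S1pr1, which guides exit from tissue, had a combination ratio of 1.12 (0.53 to 1.73). Itgae, the integrin chain CD103 of resident T cells, had 5.61 CPM in anti-PD-1 cells, 2.40 CPM in anti-CTLA-4 cells and 5.00 CPM in combination cells, against 22.6 CPM in control cells and was lower past 2-fold after every treatment. Cxcr6, the receptor of CXCL16, was the most abundant of the list by UMIs, with 1241 CPM in anti-PD-1 cells, 1170 CPM in anti-CTLA-4 cells and 1465 CPM in combination cells, against 1085 CPM in control cells.

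Of 8 genes listed as partners of the receptor or handlers of its ligands, 7 were tested in T cell-like clusters. Tbx21, the gene of the transcription factor T-bet that is known to activate Cxcr3, had 60.0 CPM in anti-PD-1 cells, 62.1 CPM in anti-CTLA-4 cells and 39.3 CPM in combination cells, against 52.9 CPM in control cells. Its combination ratio of -0.43 (-0.79 to -0.07) had the opposite sign to that of Cxcr3. Dpp4, the gene of a protease that trims the ligands, had 24.7 CPM in anti-PD-1 cells, 23.6 CPM in anti-CTLA-4 cells and 34 CPM in combination cells, against 29.5 CPM in control cells, and its intervals met 0. Pf4, a platelet-type chemokine gene, was higher past 2-fold in anti-PD-1 cells (1.40) and lower in anti-CTLA-4 cells (-1.58). Pf4 is a leading gene of macrophage/monocyte-like cluster 2, and no expression in T cells was read from its UMIs there.

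Across clusters the ligands had similar patterns. Over the 19 clusters, which share libraries and differ in depth, Pearson's r of log2(CPM + 10) was 0.86 between Cxcl9 and Cxcl10, -0.84 between Cxcl9 and Cxcr3 and -0.74 between Cxcl10 and Cxcr3. Among 8984 genes those most like Cxcl9 were Nupr1 (r = 0.96), Igsf8, Ltbr, Anxa5 and Adam9. Those most like Cxcl10 were Parp12 (r = 0.95), Tgm2, Oas1a, Gbp2b and Arrdc4. Those most like Cxcr3 were Ikzf1 (r = 0.95), S1pr4, Grap, Elf1 and Sytl1. Oas1a and Parp12 are interferon-stimulated genes, and Ikzf1 encodes the lymphoid transcription factor Ikaros.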

How the data were processed

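Live CD45+ cells of 4 tumour samples, 1 per treatment, were profiled with droplet single-cell RNA sequencing. Matrices of unnormalized UMI counts were deposited by the authors, with 2 cell tables that hold their cluster numbers. The submitters' processing notes name Cell Ranger, Seurat and the mouse build mm10, without versions.

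Barcodes were joined to the cell tables within each library, since 109 of 14382 sequences occurred in more than 1 library. Of the listed barcodes, 2 had no column in the matrices. The sources used here do not give the authors' cell filter, and no filter was added. No doublet caller was run, and an alternative dropped the 3% of each library's cells with the most UMIs and cells with at least 2 UMIs each of the Cd3 genes and the C1q genes. The 14491 cells were summed per library and cluster with Python 3.11.15, numpy 2.4.6, scipy 1.17.1 and pandas 2.3.3, and plotted with matplotlib 3.10.9. Levels carry exact Poisson intervals, shares carry Clopper-Pearson intervals and ratios carry conditional binomial intervals, all at 95%. UMIs are counted molecules, but intervals leave out the variation between mice. Those of levels and ratios treat UMIs as independent counts and leave out the variation between cells as well.

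A ratio needed at least 20 UMIs in both libraries together, and a cluster at least 20 cells in a library. Shares at equal depth used each cell thinned to 1000 UMIs, with 13840 cells kept and 651 shallower cells left out. Cluster names came from marker genes among the 10 leading genes by fold. Where a cluster had no marker among them, the class with the highest share of detected markers was used, a rule added after the data were seen. Likeness to a member used genes with at least 200 UMIs. Named genes are the members, the genes of the listed pathways, the 5 genes most like each member and the leading genes of clusters. The members and lists were chosen with earlier results of these data known. The ratio and interval code was tested on simulated data. Some listed genes and a motif searched are not reported here.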

Additional observations from a re-analysis of the deposited data

Results flagged for a closer look

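In barcodes outside the cell table, Cxcl9 and Cxcl10 of each single-antibody library and Cxcr3 of the combination library lay above their level in the control library, while both ligands of the combination library lay below it. There were 23 such barcodes in the anti-PD-1 library, 36 in the anti-CTLA-4 library and 21 in the combination library, against 47 in the control library, with median depths of 15099 to 18981 UMIs. Cxcl9 had 161.8 CPM in those of the anti-PD-1 library, 185.8 CPM in those of the anti-CTLA-4 library and 8.95 CPM in those of the combination library, against 106.2 CPM in those of the control library. Cxcl10 had 432.8 CPM in anti-PD-1, 447.8 CPM in anti-CTLA-4 and 14.9 CPM in combination barcodes, against 47.2 CPM in control barcodes. The high level after anti-PD-1 came from 214 UMIs in 8 of its 23 barcodes. The one after anti-CTLA-4 came from 294 UMIs in 8 of its 36 barcodes. A Cxcl10 UMI was found in 12 of the 47 control barcodes and in 3 of the 21 combination barcodes. How these UMIs were spread over single barcodes was not looked up. Cxcr3 had 65.6 CPM in combination barcodes, against 10.9 CPM in control barcodes.

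Some log2 ratios to control had opposite directions in different clusters, with intervals that left out 0 on either side, and the difference between clusters was not tested. For Cxcl9 after anti-PD-1 the ratio was 0.73 in cluster 1, 0.34 in cluster 2 and 0.45 in cluster 13, but -0.32 in cluster 0 and -0.43 in cluster 7. For Cxcl9 after anti-CTLA-4 it was 0.75 in cluster 1, but -0.92 in cluster 0, -0.44 in cluster 2, -0.83 in cluster 4 and -1.64 in cluster 7. For Cxcl10 after anti-PD-1 it was 0.83 in cluster 1 and 0.50 in cluster 2, but -1.37 in cluster 4 and -0.31 in cluster 7.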

How the results depend on the processing

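Values below are log2 ratios to control, and the cause of each change was not tested. Of the ratios of all listed cells and of named classes under an alternative, 104 stayed within the counting interval of the value reported, 34 lay outside it and 3 changed sign from a value whose interval left out 0. For single clusters these numbers were 80, 15 and 1 in that order. A change of sign from a value whose interval met 0 is not in the last number, and there were 1 of these in classes and 5 in single clusters. The Cxcl9 and Cxcl10 ratios of the combination in all cells and in the macrophage/monocyte-like class stayed below 0 under every alternative run.

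In all listed cells the ratios, in the order of anti-PD-1, of anti-CTLA-4 and of both antibodies, were 0.28, -0.38 and -2.45 for Cxcl9, 0.51, -0.28 and -1.16 for Cxcl10 and -0.42, -0.77 and 0.27 for Cxcr3. With cells thinned to 1000 UMIs, Cxcl9 had 0.38 in anti-PD-1 cells, -0.21 in anti-CTLA-4 cells and -2.33 in combination cells, Cxcl10 had 0.70, -0.07 and -0.93, and Cxcr3 had -1.08 in anti-CTLA-4 cells. With median-of-ratios size factors Cxcl9 had 0.33 in anti-PD-1 cells. As a mean over cells the anti-CTLA-4 ratios were -0.25 for Cxcl9, -0.15 for Cxcl10 and -1.06 for Cxcr3, and Cxcl10 had 0.61 in anti-PD-1 cells. Without the 10 cells highest in the gene, Cxcl10 had 0.68 in anti-PD-1 cells and -1.38 in combination cells, and Cxcr3 had -0.64 in anti-PD-1 cells and 0.45 in combination cells. With every barcode, Cxcl10 had 0.66 in anti-PD-1 cells and, with a changed sign, 0.02 in anti-CTLA-4 cells.

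In the macrophage/monocyte-like class the ratios were 0.41, -0.08 and -2.31 for Cxcl9 and 0.57, -0.15 and -1.42 for Cxcl10 in the same order. Thinned cells gave Cxcl9 0.32 in anti-PD-1 cells and -0.21 in anti-CTLA-4 cells, and Cxcl10 0.70 in anti-PD-1 cells. Median-of-ratios factors gave Cxcl9 0.03 in anti-CTLA-4 cells, a changed sign, and -2.16 in combination cells. The mean over cells gave Cxcl9 0.32, -0.25 and -2.46, and Cxcl10 -1.61 in combination cells. Joining cluster 0 gave Cxcl9 0.24 in anti-PD-1 cells and -0.29 in anti-CTLA-4 cells. With the clusters weighted as in control, Cxcl9 had 0.48, 0.34 (a changed sign) and -1.90, and Cxcl10 had 0.38, -0.53 and -1.85. Without the 10 highest cells Cxcl10 had 0.77 in anti-PD-1 cells and -1.65 in combination cells.

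Within single clusters, under alternatives chosen after seeing the data, thinned cells gave Cxcl9 -0.22 in anti-PD-1 cells in cluster 0, -2.21 in anti-CTLA-4 cells in cluster 7, and combination ratios of -1.85 in cluster 1, -2.19 in cluster 2 and -3.94 in cluster 7. They gave Cxcl10 1.11 in anti-PD-1 cells and -0.30 (0.19 with all UMIs) in anti-CTLA-4 cells in cluster 1, and Cxcr3 in anti-CTLA-4 cells 0.29 in cluster 8 (-0.34 with all UMIs) and -0.02 in cluster 9. Without the highest cell of each library, Cxcl10 had combination ratios of -1.34 in cluster 0 and -1.79 in cluster 4, and -0.56 in anti-PD-1 cells in cluster 4. Cxcr3 had -0.58, -0.40 and 0.76 in cluster 3, where the combination was reported at -0.12, and -0.46, a changed sign, in anti-PD-1 cells in cluster 9. With 1 CPM added in place of 10, 3 of the 5 genes most like Cxcr3 were kept.

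The doublet filter left out 190 anti-PD-1 cells, 174 anti-CTLA-4 cells and 205 combination cells, against 289 control cells. No paired analysis was possible because each treatment had 1 library without a replicate number, so there was also no replicate to leave out. The number of mice behind a library, and the variation between mice, cannot be told from these files.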
